A study of Mus musculus with 8 samples.

Results

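Interferon-stimulated genes and chemokines were followed in B16-F10 cells, a cultured mouse melanoma line, grown on the extracellular matrix that smooth muscle cells had left behind. The set held 9 of the 46477 rows of the expression table, found by gene symbol: Cxcl10, Ccl5, Isg15, Rsad2, Ifit1, Ifit2, Ifit3, Irf7 and Usp18. All 9 were in the table, and 6 of them reached a mean of 1 FPKM (fragments per kilobase of gene at a common library size) over the libraries, as did 6917 genes in all. Ifit1, Irf7 and Usp18 did not. The 9 genes had been chosen by their values in these same libraries, so their levels and differences are given as a description with no test.

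The smooth muscle cells were treated with siRNA over 72 hours. They then spent 72 hours in one of 2 media, after which lysis and washing left only their matrix. The melanoma cells then spent 24 hours on the matrix before their total RNA was taken. In the order used here the groups were TCM siKLF4-siFN, TCM siFN, TCM siKLF4, TCM siNT, SFM siKLF4-siFN, SFM siFN, SFM siKLF4 and SFM siNT, with 1 library each. TCM is read as the B16-F10 tumor conditioned media that the series title names; the labels do not spell out SFM, which served as the comparison medium. siKLF4 and siFN name the transcription factor KLF4 and fibronectin as targets, siKLF4-siFN is both together, and siNT is taken as the control siRNA. All 8 groups share the melanoma line, the smooth muscle matrix and an siRNA treatment, and the labels do not give the source of the smooth muscle cells. The siRNA was given to cells that had been removed, so its effect on its targets cannot be checked in these libraries.

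Type I interferons bind a receptor at the cell surface and act through JAK kinases and transcription factors that bind a DNA element called the interferon-stimulated response element (ISRE). Interferon regulatory factors that are activated when a cell senses nucleic acid can use the same element, and NF-kB adds to the expression of some of these genes. Cxcl10 and Ccl5 encode secreted chemokines that draw T cells and natural killer cells towards a tumour. Isg15, Rsad2 and the Ifit genes encode proteins that hinder viruses inside the cell, and Irf7 and Usp18 encode a factor that amplifies the response and an inhibitor that dampens it.

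The upstream sequences are shown because most of the genes carry the same short element. RefSeq windows on GRCm38.p6, running from 250 bases before to 50 bases after a start site, were found for 7 of the 9 genes; Ccl5 and Usp18 are named only. Both strands were searched for the ISRE core (GAAA, any 2 bases, GAAA), the STAT element (GAS) TTCNNNGAA, the TATA box TATAAA and the NF-kB element by name. An ISRE match was present in 5 of the 7 genes, which had 8 windows, and in 3.44% of 32851 promoter windows of the same length. Genes listed as interferon-stimulated were likely to hold this element, so nothing is inferred from that distance. Whether the element has a part in the members' levels was not tested. Capitals below mark the ISRE matches and, in Cxcl10, also its 2 NF-kB matches; each stretch is written 5′ to 3′ on the strand of its gene with 15 bases on either side of the outermost match.
Cxcl10, chr5:92348968-92349117, minus strand: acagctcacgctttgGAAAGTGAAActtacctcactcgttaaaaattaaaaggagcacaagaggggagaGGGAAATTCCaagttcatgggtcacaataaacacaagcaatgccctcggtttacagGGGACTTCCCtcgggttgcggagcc
Isg15, chr4:156200860-156200911, minus strand: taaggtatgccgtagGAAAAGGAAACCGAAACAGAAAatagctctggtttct
Rsad2, chr12:26456548-26456587, minus strand: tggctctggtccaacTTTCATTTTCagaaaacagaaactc
Ifit1, chr19:34640770-34640828, plus strand: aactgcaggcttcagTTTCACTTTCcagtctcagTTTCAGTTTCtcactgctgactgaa
Ifit3, chr19:34583358-34583431, plus strand: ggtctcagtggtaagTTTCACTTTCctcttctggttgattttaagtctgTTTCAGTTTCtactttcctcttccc
Counted from the start site to the first base of the match, the ISRE lay at -213 in Cxcl10 and at -120 in Rsad2. Isg15 had 3 overlapping matches at -78, -72 and -66, Ifit1 had 2 at -104 and -85, and Ifit3 had 2 at -156 and -122. The NF-kB matches of Cxcl10, at -159 and -103, were the only ones in these 7 genes, and 4.51% of all windows held one. A GAS match stood at -241 in 1 of the 2 windows of Ifit2, against 8.3% of all windows. TATA matches were found in Irf7 at -29 and, on the strand opposite to the gene, in Rsad2 at -10, against 13.6%. No ISRE match was found in the Ifit2 windows or in that of Irf7, which says only that these letters are not in those windows.

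Cxcl10 had the highest mean level of the 9 genes, 32.8 FPKM, and the largest SD of log2(FPKM + 1), 1.36. Its gene lies at chr5:92346638-92348889 on the minus strand (GENCODE M21, GRCm38). It had 51.2 FPKM in TCM siKLF4-siFN, 50.8 in TCM siFN, 53.0 in TCM siKLF4 and 7.50 in TCM siNT, against 3.82 in SFM siKLF4-siFN, 14.99 in SFM siFN, 38.4 in SFM siKLF4 and 42.8 in SFM siNT. The values in TCM siNT, SFM siKLF4-siFN and SFM siFN were thus the lowest, and the other 5 libraries lay between 38.4 and 53.0 FPKM. The highest level was 13.9 times the lowest. With 1 library per condition no spread between cultures can be given. In RNA from whole cultures, fewer expressing cells and less RNA per cell cannot be told apart.

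Ccl5, the other chemokine, is encoded at chr11:83525778-83530518 on the minus strand. Its level was 6.52 FPKM in TCM siKLF4-siFN, 6.56 in TCM siFN, 7.99 in TCM siKLF4 and 1.62 in TCM siNT, against 1.31 in SFM siKLF4-siFN, 4.22 in SFM siFN, 6.55 in SFM siKLF4 and 6.88 in SFM siNT. The same 3 libraries were the lowest, in the same order from SFM siKLF4-siFN upwards to TCM siNT and SFM siFN, and the highest level was 6.09 times the lowest.

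**Figure D1:**
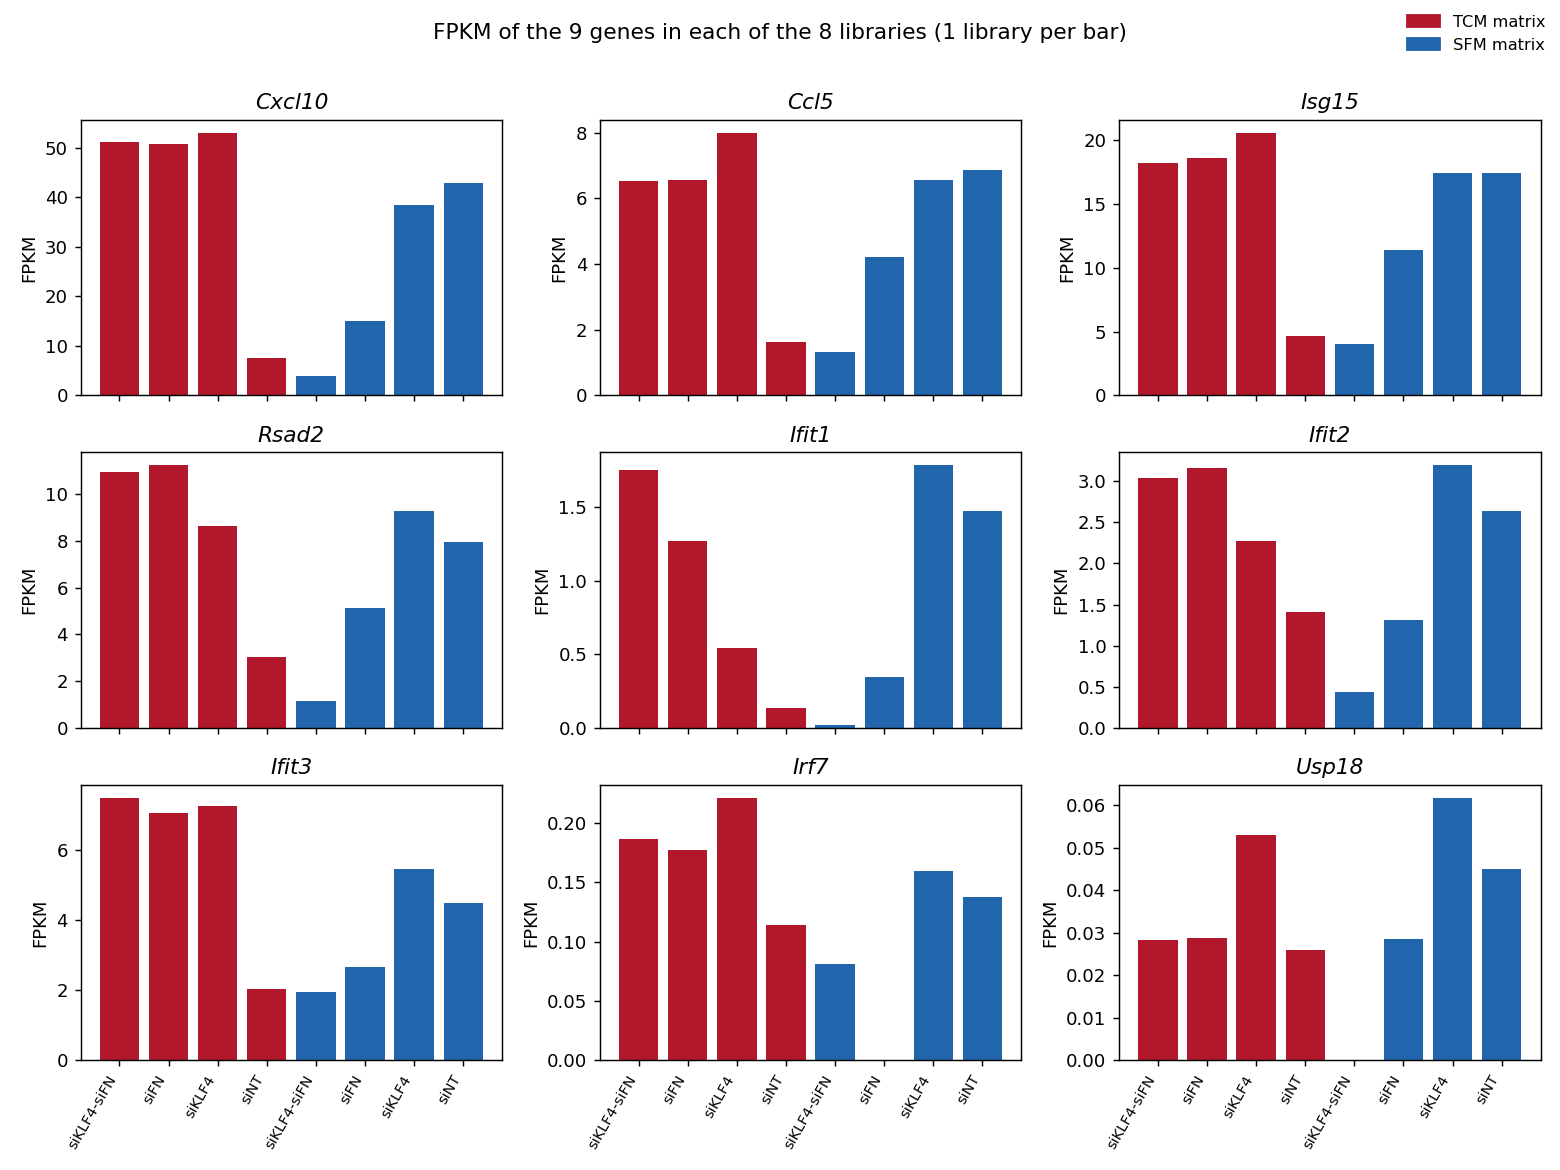
FPKM (vertical axes, each starting at 0) of the 9 genes in the 8 libraries, TCM matrix in red and SFM matrix in blue, with 1 library per bar and so no error bar. Cxcl10 stands between 38.4 and 53.0 FPKM in 5 libraries and at 7.50 in TCM siNT, 3.82 in SFM siKLF4-siFN and 14.99 in SFM siFN.

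Isg15 encodes a small protein that is joined to other proteins much as ubiquitin is, and lies at chr4:156199424-156200818 on the minus strand. It had 18.2 FPKM in TCM siKLF4-siFN, 18.6 in TCM siFN, 20.6 in TCM siKLF4 and 4.69 in TCM siNT, against 4.02 in SFM siKLF4-siFN, 11.4 in SFM siFN, 17.4 in SFM siKLF4 and 17.5 in SFM siNT. SFM siFN was intermediate for this gene too, and the highest level was 5.11 times the lowest.

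Rsad2 encodes viperin, an enzyme that makes a nucleotide which stops viral RNA synthesis, and lies at chr12:26442746-26456452 on the minus strand. Its level was 10.9 FPKM in TCM siKLF4-siFN, 11.2 in TCM siFN, 8.65 in TCM siKLF4 and 3.04 in TCM siNT, against 1.13 in SFM siKLF4-siFN, 5.14 in SFM siFN, 9.30 in SFM siKLF4 and 7.97 in SFM siNT. The highest level was 9.92 times the lowest. TCM siNT lay further above SFM siKLF4-siFN here than it did for Ccl5 or Isg15.

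The 3 Ifit genes lie within 99.3 kb on chromosome 19, all on the plus strand, with Ifit3b between Ifit3 and Ifit1. Ifit2 is at chr19:34550694-34576419, Ifit3 at chr19:34583531-34588731 and Ifit1 at chr19:34640871-34650009. Their proteins bind viral RNA or one another. Ifit2 had 3.04 FPKM in TCM siKLF4-siFN, 3.16 in TCM siFN, 2.28 in TCM siKLF4 and 1.40 in TCM siNT, against 0.430 in SFM siKLF4-siFN, 1.31 in SFM siFN, 3.19 in SFM siKLF4 and 2.64 in SFM siNT. Ifit2 therefore stood at a similar level in TCM siNT and SFM siFN, and lower again in SFM siKLF4-siFN.

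Ifit3 had 7.51 FPKM in TCM siKLF4-siFN, 7.07 in TCM siFN, 7.26 in TCM siKLF4 and 2.03 in TCM siNT, against 1.94 in SFM siKLF4-siFN, 2.68 in SFM siFN, 5.47 in SFM siKLF4 and 4.49 in SFM siNT. Its 3 low libraries lay closer together than those of Cxcl10, Ccl5, Isg15, Rsad2 and Ifit2. Of the 50-base stretches of the annotated Ifit3 transcripts, 51.2% also occur in its neighbour Ifit3b, so counting could have split reads between the 2 genes and the level of Ifit3 is uncertain. Ifit3b itself was highest in TCM siFN, at 3.06 FPKM, and lowest in SFM siKLF4-siFN, at 0.422.

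Ifit1, which recognises RNA caps that are not the cell's own, was low throughout. It had 1.75 FPKM in TCM siKLF4-siFN, 1.27 in TCM siFN, 0.541 in TCM siKLF4 and 0.134 in TCM siNT, against 0.0168 in SFM siKLF4-siFN, 0.348 in SFM siFN, 1.78 in SFM siKLF4 and 1.47 in SFM siNT. It departed from the other genes in TCM siKLF4, which was intermediate rather than high. From the estimated depth, the value in SFM siKLF4-siFN rests on less than 1 read and that in TCM siNT on about 4.90 reads, so no fold change is given for Ifit1, and its differences of log2(FPKM + 1) below rest on the same few reads. Of the 50-base stretches of Ifit1, 7.13% also occur in other genes.

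The regulators were close to the limit of detection. Irf7 (chr7:141262706-141266481, minus strand) had 0.187 FPKM in TCM siKLF4-siFN, 0.177 in TCM siFN, 0.221 in TCM siKLF4 and 0.114 in TCM siNT, against 0.0814 in SFM siKLF4-siFN, 0 in SFM siFN, 0.159 in SFM siKLF4 and 0.137 in SFM siNT. Usp18 (chr6:121245906-121270917, plus strand) ran from 0 in SFM siKLF4-siFN to 0.0618 in SFM siKLF4, which corresponds to about 2.88 reads at most in any library. At this depth no difference in Usp18 was detectable, and the few reads of Irf7, at most about 13.9, carry a large counting error.

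Depth was estimated from the steps between low FPKM values at 11600000 to 23000000 reads per library. At 1 FPKM a gene of 2 kb then had between 23.2 and 46.0 reads, which puts its counting error between 14.7% and 20.8%. The labelled cell type had its markers: 7 of 8 melanocyte genes reached a mean of 1 FPKM, with sums of 355 to 579 FPKM. Of 16 smooth muscle markers, 1 (Des) did so, the sum was 1.75 to 2.80 FPKM, and Acta2, Myocd, Sost and Rgs5 were listed at 0 in every library. Of 14 leukocyte markers, 1 (Cd68) did so, the sum was 1.96 to 4.57 FPKM with its highest value in TCM siNT, and Adgre1, Itgam and Cd3e were among 9 listed at 0. Fibroblast markers summed to 0.290 to 0.734 FPKM and endothelial markers to 0.0165 to 0.0497, with none at a mean of 1. All 37 mitochondrially encoded rows were also listed at 0, so a 0 in this table need not mean low expression. The share of the members' levels that comes from other cell types was not tested.

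The study's question was how the medium and the siRNA treatment of the smooth muscle cells showed in melanoma cells on their matrix. Libraries that differ in 1 factor form 12 pairs, compared as differences of log2(FPKM + 1), a scale that understates the change of low genes. A difference of at least 1 was counted, beside the share of the 6917 genes with a mean of at least 1 FPKM that passed the same limit. The pairs share libraries and the genes were chosen with these values known, so nothing is inferred from the distance between a count and its background share.

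On matrix from cells given both siRNAs, TCM minus SFM was at least 1 in 7 of the 9 genes, against 7.46% of all genes in that direction. Cxcl10 was 13.4 times as high in TCM siKLF4-siFN as in SFM siKLF4-siFN, Rsad2 9.65 times and Ifit2 7.08 times. Irf7 and Usp18 could not reach the limit, and the median of the 9 differences was 1.53. With siFN alone, 2 genes passed, Cxcl10 at 1.70 and Ifit3 at 1.13, against 3.22% of all genes. Rsad2 lay just short of the limit at 0.995, and all 9 differences were above 0, with a median of 0.75; with a pseudocount of 0.1 in place of 1 the count was 6.

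With siNT the order of the media was turned round. TCM siNT was lower than SFM siNT by at least 1 in 5 genes, against 1.86% of all genes in that direction, and all 9 differences were below 0 with a median of -1.13. Cxcl10 was at -2.37, Isg15 at -1.70, Ccl5 at -1.59, Rsad2 at -1.15 and Ifit1 at -1.13. With siKLF4 alone no gene passed, against 1.32% of all genes in either direction, and the differences ran from -0.85 for Ifit1 to 0.46 for Cxcl10.

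On TCM matrix, siKLF4 minus siNT was at least 1 in 5 genes, Cxcl10, Ccl5, Isg15, Rsad2 and Ifit3, against 1.56% of all genes. Cxcl10 was 7.06 times as high in TCM siKLF4 as in TCM siNT, Ccl5 4.92 times and Isg15 4.38 times. Where siFN was present as well, TCM siKLF4-siFN and TCM siFN differed by 0.28 at most, in Ifit1, no gene passed and 0.289% of all genes did so in either direction. On SFM matrix siKLF4 minus siNT gave no gene past the limit, against 0.723% of all genes, and a median of 0.03. With siFN present, SFM siKLF4-siFN was lower than SFM siFN by at least 1 in 4 genes, against 2.3% of all genes, with Cxcl10 at -1.73, Rsad2 at -1.52, Isg15 at -1.31 and Ccl5 at -1.17.

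The siFN pairs share these libraries. On TCM matrix, siFN minus siNT was at least 1 in Cxcl10 (2.61), Isg15 (1.79), Rsad2 (1.60), Ccl5 (1.53) and Ifit3 (1.41), against 1.62% of all genes, and Ifit1 lay just under the limit. Added to siKLF4 on TCM matrix, siFN gave no gene past the limit, against 0.781% of all genes in either direction. On SFM matrix, siFN minus siNT passed in Cxcl10 alone, at -1.45 against 2.86% of all genes, although all 9 differences were below 0 with a median of -0.58. SFM siKLF4-siFN was lower than SFM siKLF4 by at least 1 in 7 genes, against 7.27% of all genes. Cxcl10 was at -3.03, Rsad2 at -2.27, Isg15 at -1.87 and Ccl5 at -1.71, with a median of -1.55.

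**Figure D2:**
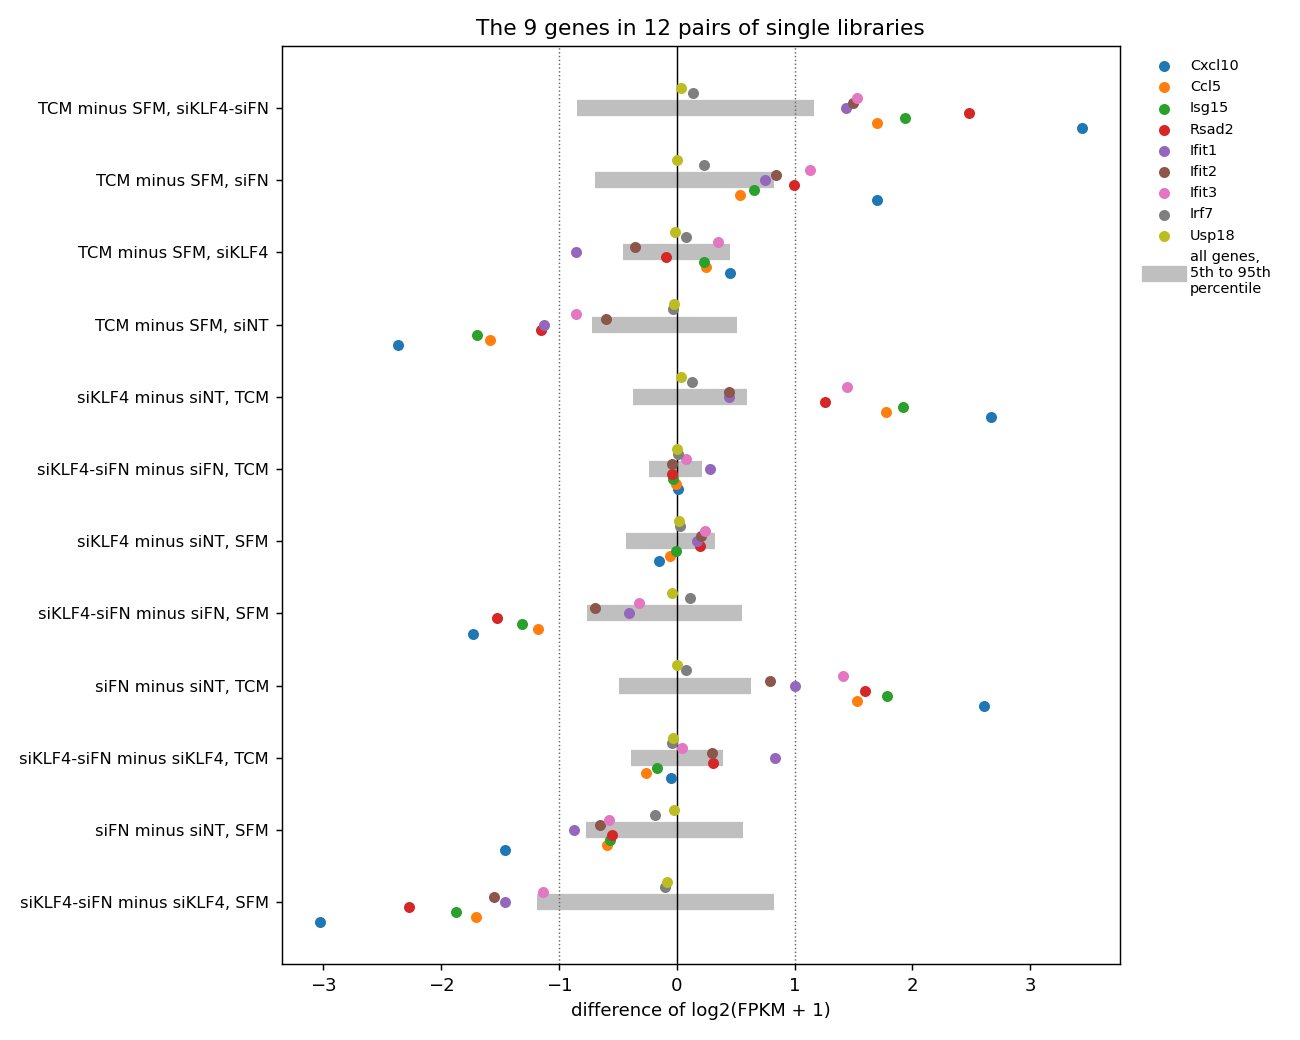
Difference of log2(FPKM + 1) in each of the 12 pairs of single libraries for the 9 genes (points), with the 5th to 95th percentile of the 6917 tested genes as a grey bar and dotted lines at -1 and 1. Cxcl10 runs from 3.44 in TCM minus SFM with both siRNAs to -3.03 for siFN added to siKLF4 on SFM matrix. Irf7 and Usp18 stay near 0 because their FPKM is too low for a larger difference on this scale.

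The 3 factors were also fitted over all 8 libraries. Fitted with medium, siKLF4 and siFN as terms, the medians of the 9 coefficients (log2) were 0.28 for TCM minus SFM, 0.12 for siKLF4 and -0.21 for siFN, beside medians over all tested genes of 0.02, 0.01 and -0.02. Cxcl10 had 0.81 ± 1.18 for medium, 0.20 ± 1.18 for siKLF4 and -0.48 ± 1.18 for siFN (SE, n = 8 libraries). These medians rested on single libraries. That for siKLF4 ran from -0.34 without TCM siNT to 0.64 without SFM siKLF4-siFN, and that for siFN from -0.60 without TCM siNT to 0.29 without SFM siKLF4-siFN, so both changed sign. That for medium ran from -0.11 to 0.86, the highest without TCM siNT. The fitted medium by siFN term was 3.52 ± 1.82 for Cxcl10, 2.36 ± 1.15 for Rsad2, 2.08 ± 0.37 for Ifit1, 2.03 ± 1.33 for Isg15, 1.79 ± 1.22 for Ccl5, 1.65 ± 0.49 for Ifit2 and 1.59 ± 0.76 for Ifit3. The terms of Irf7 and Usp18 were 0.16 ± 0.06 and 0.040 ± 0.034. The median of the 9 terms was 1.79, against -0.06 over all tested genes, and it was 0.86 without TCM siNT. The SE of a member describes the spread around the fit and is no test, since these libraries chose the genes.

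The variance of each gene over the libraries was divided among the contrasts of the design. Medium by siFN held 47.6% of the variance of Cxcl10, 38.9% of that of Ccl5, 41.2% for Isg15 and 50.8% for Rsad2. It held 64.2% for Ifit2, 42.2% for Ifit3 and 88.9% for Ifit1, of few reads. Over all tested genes it held 38.0% of their summed variance. Shares over all genes, here and below, are of that sum, in which genes of large variance weigh most. Medium by siFN held less in the barely detected Irf7 (22.6%) and Usp18 (15.6%). Medium by siKLF4 held 20.0% for Cxcl10, 27.5% for Ccl5, 25.6% for Isg15, 14.7% for Rsad2 and 10.9% for Ifit3, beside 7.39% over all genes, but 4.71% for Ifit1 and 4.74% for Ifit2. The siKLF4 by siFN share was 17.2% for Cxcl10, 25.6% for Ccl5, 26.5% for Isg15, 20.7% for Rsad2, 15.6% for Ifit3 and 11.3% for Ifit2, beside 7.74% over all genes, but 2.81% for Ifit1.

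**Figure D3:**
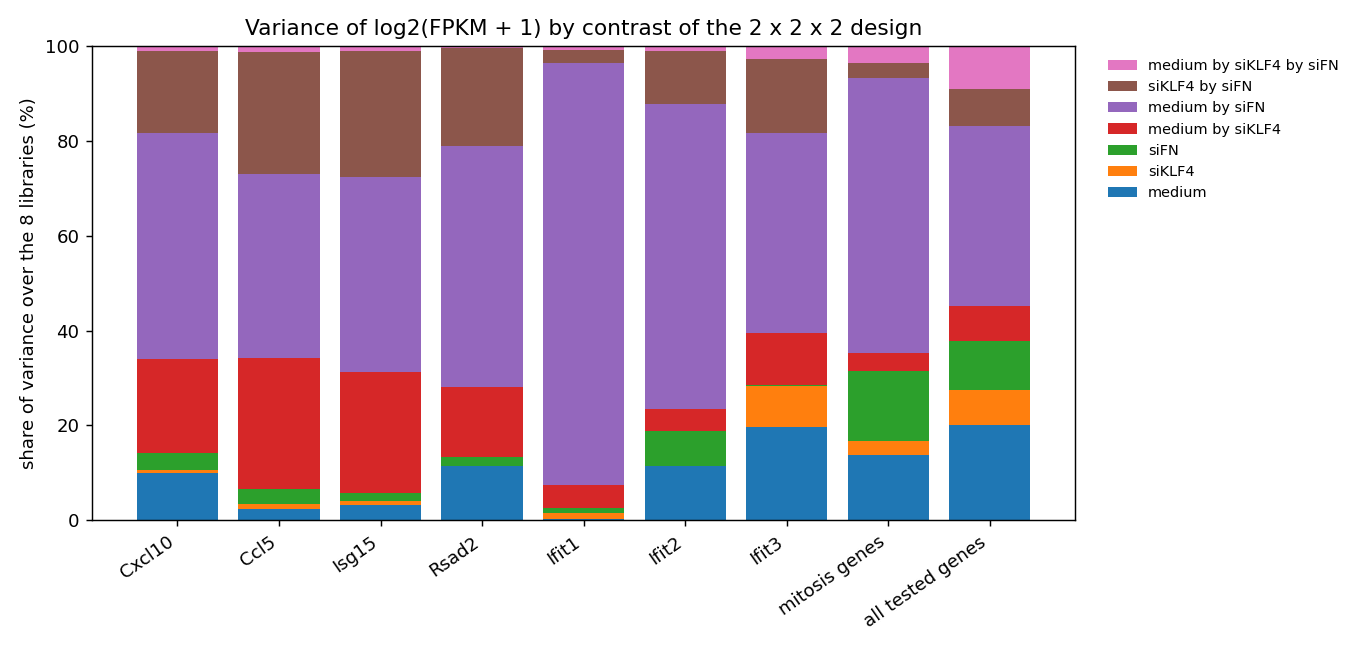
Share of the variance of log2(FPKM + 1) over the 8 libraries (%) held by each contrast of the design, for the 7 members other than Irf7 and Usp18. The bars of 18 mitosis genes and of all tested genes are shares of the variance summed over those genes. Medium by siFN holds 64.2% for Ifit2 and 38.9% for Ccl5, and Ccl5 and Isg15 have the broadest bands for the other interactions.

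The rest of the interferon pathway was mostly low, which kept most of its genes out of the test, and few of those tested passed. Of 226 other genes on 10 lists of ligands, receptors, signalling factors, sensors, targets and chemokines, 43 reached a mean of 1 FPKM. In limma with Benjamini-Hochberg adjustment over all 6917 genes, the medium by siFN term was called in 4 of the 43, 2 higher and 2 lower, a share close to the 7.17% of all tested genes that were called. Medium, siKLF4, siFN and the other 2 interactions called 0.0% of all tested genes each, 0 of 6917. Each of these fits left the medium by siFN contrast, with 38.0% of the summed variance of all tested genes, in its residual. Low counts were therefore likely for them, and a count of 0 does not show that a factor had no effect. Genes with an unadjusted p under 0.05 (limma) numbered 464 for medium, 84 for siKLF4 and 84 for siFN. They numbered 78 for medium by siKLF4, 40 for siKLF4 by siFN and 2323 for medium by siFN. By chance a share of 0.05 of the genes is expected under that limit. Only the counts for medium and for medium by siFN lay above that share.

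No interferon gene reached a mean of 1 FPKM. Of 21 ligand genes, 19 were listed at 0 in all 8 libraries, Ifnb1 and Ifnz being the others. The sum ran from 0 FPKM in TCM siNT and SFM siKLF4 to 0.368 FPKM in SFM siKLF4-siFN, where it was Ifnz alone. Ifnb1 was above 0 only in TCM siFN (0.137 FPKM) and TCM siKLF4 (0.0929 FPKM), both close to the limit of detection. Of 6 receptor genes, Ifnar1, Ifngr2 and Il10rb passed the filter and 0 were called. Ifnar1, a chain of the type I interferon receptor, lay between 1.97 and 2.35 FPKM in all 8 libraries. Ifngr2, a chain of the interferon gamma receptor, lay between 1.20 and 2.05, and Il10rb, a chain shared with the interferon lambda receptor, between 0.9995 and 2.13.

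Among 12 JAK-STAT and IRF genes, 4 passed the filter and 0 were called. Irf1, a transcription factor that binds the ISRE, had 1.48 FPKM in TCM siKLF4-siFN, 1.41 in TCM siFN, 1.61 in TCM siKLF4 and 0.697 in TCM siNT, against 0.414 in SFM siKLF4-siFN, 0.437 in SFM siFN, 1.39 in SFM siKLF4 and 1.62 in SFM siNT. Its medium by siFN term was 1.03 ± 0.26 (adjusted p = 0.0613, limma), which missed the threshold of 0.05. Irf3, which is activated by nucleic acid sensors, lay the other way at 3.08 to 4.99 FPKM, with its highest value in SFM siKLF4-siFN. Its term of -0.46 ± 0.21 missed the threshold (adjusted p = 0.177, limma). The kinase Jak1 lay between 1.04 and 1.48 FPKM. The kinase Tyk2 lay between 0.963 and 1.66 FPKM, with its highest value in SFM siKLF4-siFN as well, and a term of -0.27 ± 0.19 (adjusted p = 0.342, limma).

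Of 28 genes of nucleic acid sensing, 9 passed the filter, 1 was called higher and 1 lower. Rnaseh2c, a subunit of the enzyme that removes ribonucleotides from DNA, had 5.76 FPKM in TCM siKLF4-siFN, 7.52 in TCM siFN, 6.66 in TCM siKLF4 and 4.84 in TCM siNT, against 2.54 in SFM siKLF4-siFN, 2.57 in SFM siFN, 7.05 in SFM siKLF4 and 7.69 in SFM siNT. Its medium by siFN term was 1.42 ± 0.26 (adjusted p = 0.0422, limma). Myd88, the adaptor of most Toll-like receptors, had 2.34 FPKM in TCM siKLF4-siFN, 2.34 in TCM siFN, 2.75 in TCM siKLF4 and 3.40 in TCM siNT, against 3.86 in SFM siKLF4-siFN, 3.75 in SFM siFN, 2.16 in SFM siKLF4 and 2.31 in SFM siNT. It ran against Rnaseh2c, with a term of -0.85 ± 0.17 (adjusted p = 0.0432, limma). Azi2 and Ticam1, adaptors of antiviral signalling, were named by their spread and were not called.

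Of 66 other interferon-stimulated genes, 12 passed the filter and 1 was called. Irgm1, an interferon-inducible GTPase, had 1.88 FPKM in TCM siKLF4-siFN, 1.68 in TCM siFN, 1.67 in TCM siKLF4 and 0.622 in TCM siNT, against 0.372 in SFM siKLF4-siFN, 0.645 in SFM siFN, 1.93 in SFM siKLF4 and 1.87 in SFM siNT. Its medium by siFN term was 1.36 ± 0.31 (adjusted p = 0.0488, limma). Ifitm3, a membrane protein that hinders the entry of viruses, had 22.0 FPKM in TCM siKLF4-siFN, 20.7 in TCM siFN, 21.5 in TCM siKLF4 and 7.77 in TCM siNT, against 7.46 in SFM siKLF4-siFN, 13.7 in SFM siFN, 23.4 in SFM siKLF4 and 20.0 in SFM siNT. The same 3 libraries were low for both genes, but the term of Ifitm3, 1.69 ± 0.62, missed the threshold (adjusted p = 0.116, limma), as did that of Ifit3b, 1.58 ± 0.41 (adjusted p = 0.0617, limma). The centred log2 mean of the 12 genes was -0.25 in TCM siNT, -0.18 in SFM siKLF4-siFN and -0.07 in SFM siFN, and between 0.08 and 0.12 elsewhere. Of the genes below the filter, Cmpk2 had the largest SD. It had 0.311, 0.0361 and 0.290 FPKM in these 3 libraries and 0.888 to 1.40 FPKM elsewhere. Genes below the filter were not tested, and their patterns were not counted. Not all genes of the list lay the same way. Ifi27 was highest in SFM siKLF4-siFN, at 6.82 FPKM, and SFM siFN, at 6.51, and between 3.76 and 4.92 in the other 6 libraries.

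Of 27 NF-kB genes and targets, 8 passed the filter and 1 was called. Tnfaip2, a gene induced by tumour necrosis factor, had 4.87 FPKM in TCM siKLF4-siFN, 4.80 in TCM siFN, 5.84 in TCM siKLF4 and 7.03 in TCM siNT, against 9.24 in SFM siKLF4-siFN, 8.14 in SFM siFN, 5.20 in SFM siKLF4 and 5.69 in SFM siNT. It was called lower, with a term of -0.93 ± 0.20 (adjusted p = 0.0478, limma). Nfkbia, the inhibitor that NF-kB itself induces, lay the other way, with its highest level, 4.20 FPKM, in TCM siKLF4 and its lowest, 1.47 FPKM, in SFM siKLF4-siFN, and its term of 1.01 ± 0.35 missed the threshold (adjusted p = 0.103, limma). The NF-kB subunit Nfkb2 was between 4.85 and 7.20 FPKM and the kinase Chuk between 0.927 and 2.34 FPKM, and neither was called.

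The count of 4 changed with single libraries and with the settings. The count was 0 without TCM siKLF4-siFN, TCM siFN, TCM siNT, SFM siKLF4-siFN, SFM siKLF4 or SFM siNT, while 7 pathway genes were called without TCM siKLF4 and 9 without SFM siFN. With a pseudocount of 0.1 the count was 0, and with a mean of at least 5 FPKM it was 2.

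The other chemokines and the chemokine receptors were low or listed at 0. None of 34 other chemokine genes reached a mean of 1 FPKM, and 24 were listed at 0 in every library, including Cxcl9 and Cxcl11, which signal through the receptor of Cxcl10. The sum of the 34 was 0.354 to 1.61 FPKM, and lowest in SFM siKLF4-siFN, TCM siNT (0.419) and SFM siFN (0.561). Of 19 chemokine receptor genes and co-receptors, Sdc4, a heparan sulfate proteoglycan, was the only one to pass the filter, at 1.26 to 2.79 FPKM, and it was not called. Ccr1 and Ccr3, receptors of Ccl5, were listed at 0. The 4 genes that join Isg15 to other proteins summed to 0.673 to 1.54 FPKM, and none passed the filter. Of 13 feedback inhibitors, 6 passed and 0 were called; Irf2bp1, a repressor bound to IRF2, had the largest SD of these, at 8.31 to 11.0 FPKM, while Ptpn11, Pias3 and Pias4 lay between 1.14 and 3.28 FPKM.

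The 6 members with a mean of at least 1 FPKM varied together, and part of their pattern was shared with cell division genes. Their centred log2 mean was 0.64 in TCM siKLF4-siFN, 0.65 in TCM siFN, 0.61 in TCM siKLF4 and -0.98 in TCM siNT, against -1.46 in SFM siKLF4-siFN, -0.33 in SFM siFN, 0.47 in SFM siKLF4 and 0.40 in SFM siNT. For 18 mitosis genes it was 0.63, 0.61, 0.57 and -0.61 on TCM matrix, and -1.27, -1.24, 0.64 and 0.66 on SFM matrix, with the siRNA treatments ordered alike. The patterns parted in SFM siFN, where the mitosis mean was as low as in SFM siKLF4-siFN and the members were far less so. In TCM siNT the members stood lower than the mitosis genes. For 19 genes that answer amino acid shortage and ER stress the signs were opposite, at 0.28 in TCM siNT, 0.36 in SFM siKLF4-siFN, 0.26 in SFM siFN and between -0.23 and -0.07 elsewhere. The part that cell division or stress has in the members' levels was not tested.

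**Figure D4:**
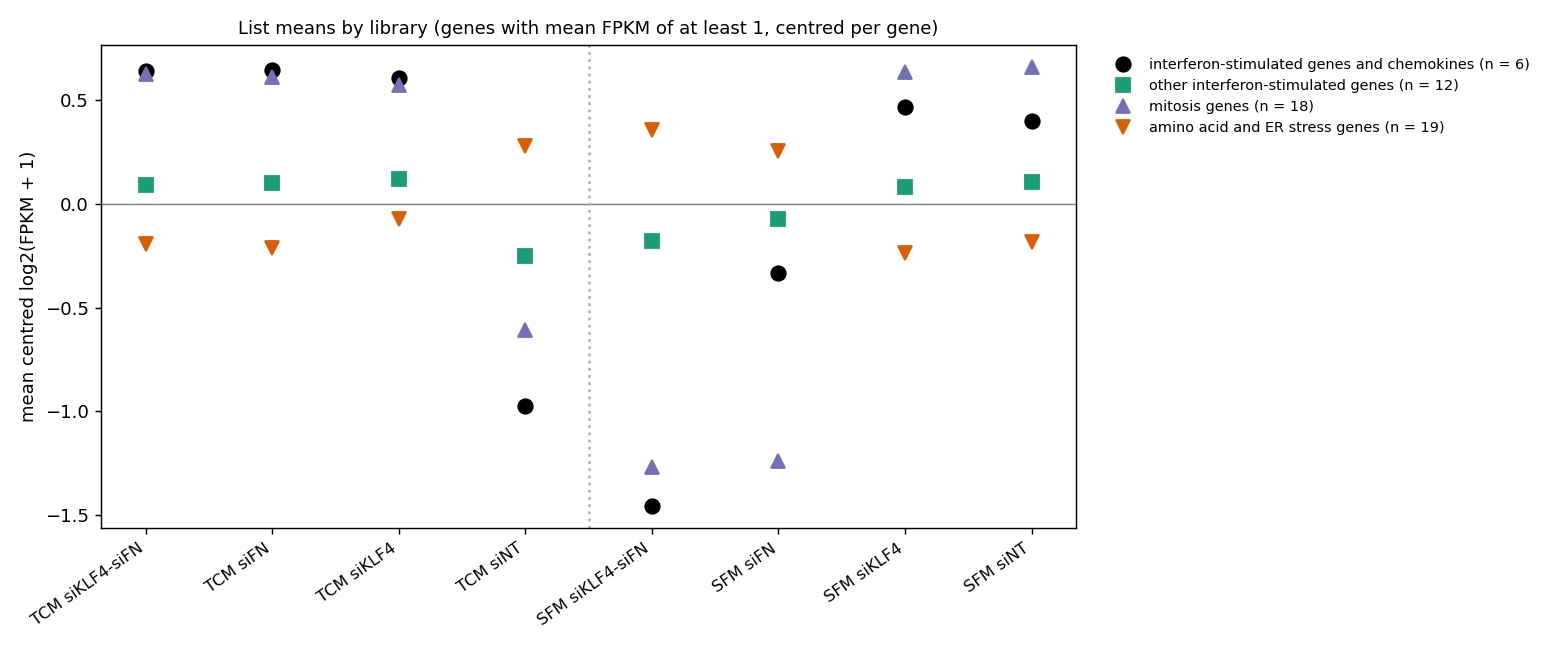
Mean log2(FPKM + 1), centred per gene, of 6 members, 12 other interferon-stimulated genes, 18 mitosis genes and 19 amino acid and ER stress genes in each of the 8 libraries. In SFM siFN the members stand at -0.33 and the mitosis genes at -1.24, while in TCM siNT they stand at -0.98 and -0.61.

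As a description over the same 8 libraries, Pearson's r between members was 0.998 for Ccl5 and Isg15 and 0.981 for Cxcl10 and Isg15, and lowest, at 0.478, for the barely detected Irf7 and Usp18. The mean member profile had an r of 0.895 to the mitosis mean and -0.936 to the stress mean. Among 915 other genes with a mean of at least 1 FPKM and an SD of at least 0.3, the most alike were Ifitm3 (r = 0.981), the mitochondrial ADP/ATP carrier Slc25a4 (0.979), the RNA exosome subunit Exosc8 (0.972), the spindle protein Psrc1 (0.966), the p53 targets Btg2 (0.964) and Trp53inp1 (0.961), the sterol synthesis enzyme Hmgcs1 (0.959) and the deubiquitinase Usp1 (0.956). Ifitm3 was the only one of these 8 on the interferon lists, but few genes of those lists were among the 915. Those with an SD of at least 0.3 were Irf1, Rnaseh2c, Ifitm3, Irgm1, Ifit3b, Nfkbia and Tnfaip2. An r above 0.9 was common, with 97 of the 915 genes (10.6%). Farthest in the other direction were the lipid droplet protein Plin2 (-0.977), the membrane tether Esyt1 (-0.963), the S-adenosylmethionine synthetase Mat2a (-0.961) and the pentose phosphate enzyme Taldo1 (-0.961). For Cxcl10 alone the 3 most alike were Psrc1 (0.977), Slc25a4 (0.976) and Ifitm3 (0.973).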

How the data were processed

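RNA-seq of 8 libraries, 1 per condition, was analysed. The authors deposited FPKM values with 46477 rows named by symbol. STAR 2.4.1d and Partek, with the build mm10, are named in the submitters' processing notes. How reads were counted, on which strand and with which annotation is not given in the sources used here, so overlapping genes, such as Cxcl10 and Art3 (3.59% of 50-base stretches shared), cannot be told apart with certainty. The members and gene lists were chosen with earlier results of these data known.

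Of all rows, 42026 (90.4%) matched a GENCODE M21 symbol on GRCm38, the assembly of mm10, and coordinates are 1-based. Values were analysed as log2(FPKM + 1). All 6917 genes with a mean of at least 1 FPKM, 6 members included, were fitted with limma 3.58.1 in R 4.3.3, two-sided, with the variance trend on and Benjamini-Hochberg adjustment over all of them at 0.05; no p is given for a member. Medium, siKLF4 and siFN entered additively, which left 4 residual degrees of freedom, and libraries sharing a level stood in for replicates; each interaction was added in turn, leaving 3. The SE of a tested gene is moderated by limma and that of a member is its own. Nothing says that libraries came from separate cultures, and p-values therefore reflect the spread among these libraries alone. The models were run on simulated data with independent noise, in which only the effect being fitted was planted. Such data hold no other interaction in the residual, so that trial does not vouch for the fits to these libraries.

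Depth was estimated from the spacing of low FPKM values. Of these values, 45.0% to 48.8% lay within 0.05 of a whole read, so depths and read numbers are approximate. FPKM is per length, so levels of 2 genes can be set side by side, but only roughly. The counting rule is not known, and stretches shared with other genes, as in Ifit3, leave a level uncertain. From each pathway list, up to 4 genes passing the filter with the largest SD are named, with those called; for likeness, the 8 highest and 4 lowest correlations, and 3 for Cxcl10, passing over pseudogenes and unnamed gene models. Alternatives were other pseudocounts and filters, rescaled FPKM, no variance trend, each library left out, and the members without Ifit1 and Ifit3.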

Additional observations from a re-analysis of the deposited data

Results flagged for a closer look

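Several members lay above 0 in both pairs at 1 level of a factor and below 0 in both pairs at its other level. These differences were not tested, and each rests on 4 single libraries on either side. The medium difference with against without siFN and the siFN difference in TCM against SFM are the same contrast, so their equality is forced. For Rsad2, TCM minus SFM was above 0 in both pairs with siFN (0.995 and 2.48) and below 0 in both without it (-0.09 and -1.15), a difference of means of 2.36 on the log2(FPKM + 1) scale, and siFN differed by the same 2.36 between TCM and SFM. Its siKLF4 difference was below 0 with siFN and above 0 without it, by -1.51, with 1 pair at -0.04 only. Ifit1, of few reads, showed 2.08 for the medium difference with against without siFN and 2.08 for siFN in TCM against SFM. Ifit2 showed 1.65 for each of these and -0.69 for siKLF4 with against without siFN, where 1 pair differed by -0.04 only. For Cxcl10 siKLF4 was above 0 in both TCM pairs and below 0 in both SFM pairs, by 2.28, although 1 of the TCM pairs differed by 0.01 only. Ifit3 showed 1.59 for siFN in TCM against SFM, with 1 TCM pair at 0.04 only. Usp18, at 3 reads or fewer, had 0.040 for medium and -0.051 for siKLF4, with against without siFN.

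In other pathway genes the medium by siFN interaction passed the limma threshold after Benjamini-Hochberg adjustment: 1.42 for Rnaseh2c, 1.36 for Irgm1, -0.85 for Myd88 and -0.93 for Tnfaip2.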

How the results depend on the processing

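Depth limits Ifit1, Irf7 and Usp18, and 1 library per condition leaves no measure of culture spread. Of the members' counts and medians and the counts of other pathway genes, 157 recomputed values stayed within the spread or within 1.5 times and 23 moved. That tally is no measure of robustness. Many values that stayed were counts of 0 that remained 0, and a median could change sign within the spread. For the medium by siFN count of other pathway genes, only rescaled FPKM (3) and no variance trend (3) stayed. Members past 1 for TCM minus SFM with siFN numbered 2, but 6 with a pseudocount of 0.1, 5 with 0.5 and 1 without Ifit1 and Ifit3. With pseudocounts of 0.1 and 0.5 the count was 1 and 1 in place of 0 for TCM minus SFM with siKLF4, 1 and 1 in place of 0 for siFN added to siKLF4 on TCM, and 3 and 2 in place of 1 for siFN minus siNT on SFM. The members' median for medium was 0.281, and -0.111 to 0.859 with each library left out in turn, the highest without TCM siNT; those for siKLF4 and siFN ran from -0.344 to 0.643 and from -0.601 to 0.292. That for medium by siFN was 1.79, and 0.862 to 2.44, the lowest without TCM siNT. The cause was not tested.

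Other pathway genes called for medium by siFN numbered 4, but 0 with a pseudocount of 0.1, 2 with a mean of at least 5 FPKM and 0 to 9 with a library left out. With no filter the count was 28, and 1930 over all genes in place of 496; that fit takes in rows at 0 in every library, which have no variance. After seeing this, rows above 0 in at least 1 library were tried as an added alternative, which gave 0 and 14. Over all genes a pseudocount of 0.1 gave 0, a mean of at least 5 FPKM 251, rescaled FPKM 463, no trend 421, and leaving out a library 0 to 2065. No paired analysis was possible because the labels give 1 library per condition and no replicate numbers.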

Other observations

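The levels of the members relative to one another also differed between libraries. Isg15 was 2.54 to 3.06 times Ccl5 (FPKM) in all 8 libraries. Cxcl10 over Isg15 was 2.82 in TCM siKLF4-siFN, 2.73 in TCM siFN, 2.58 in TCM siKLF4 and 1.60 in TCM siNT, against 0.950 in SFM siKLF4-siFN, 1.31 in SFM siFN, 2.20 in SFM siKLF4 and 2.45 in SFM siNT. It was lowest in the 3 libraries in which both genes were low. Rsad2 over Isg15 had its highest value, 0.649, in TCM siNT and its lowest, 0.282, in SFM siKLF4-siFN, both of them libraries with low levels of the 2 genes.

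The closest of the 28 pairs of libraries, over all tested genes and over the members, was TCM siKLF4-siFN and TCM siFN, with 20 genes differing by at least 1 (log2) and a median absolute difference of 0.033 among the members. TCM siKLF4-siFN and SFM siKLF4, which differ in medium and in siFN, came next, with 38 genes and 0.052.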
